A study of Mus musculus with 8 samples.

Results

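Translation initiation and elongation factors are the proteins that load ribosomes onto mRNAs, find the start codon and carry the growing chain forward. Their genes were taken here as all genes whose symbol begins with Eif or Eef, 62 of the 12551 genes with deposited counts. They were compared between whole tibialis anterior (TA) muscles, a fast-twitch muscle of the lower leg, from 4 WT and 4 KL-/- mice, all male and 7 weeks of age. KL-/- mice are homozygous for a germline mutation of Klotho that is present in every tissue, and both genotypes came from crosses of Klotho+/- mice on a mixed background. The labels name no treatment for either genotype. *Kl* is not among the counted genes, and in these counts the genotypes therefore rest on the sample labels. The study typed its mice by PCR and did not detect Klotho protein or *Kl* mRNA in KL-/- muscle. Each sample is 1 library, and p-values measure the spread between these mice.

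In initiation, eIF2 brings the initiator tRNA, eIF3 and eIF1 hold the small ribosomal subunit, and eIF4F recognises the cap of the mRNA, with eIF5 and eIF5B closing the process when the large subunit joins. In elongation, eEF1A delivers the aminoacyl-tRNAs, the other eEF1 subunits recharge it with GTP, and eEF2 moves the ribosome along by a codon at a time. Skeletal muscle is known for a switch after birth from the eEF1A1 to the eEF1A2 protein. The mTOR pathway acts on several of these factors, chiefly through phosphorylation of the eIF4E-binding proteins, which an mRNA count does not record.

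The counts summed to 20860262 to 26501093 per WT library and to 22061526 to 29273758 per KL-/- library, and values are given as counts relative to library size (CPM) after TMM scaling. The batch date of KL-/- replicate 3 differed from that of the 7 remaining libraries, and since it holds 1 library, that date and that mouse cannot be told apart. The fast myofibre markers defined this tissue in every library, with summed levels of 136374 to 157117 CPM in WT and 163661 to 213799 CPM in KL-/- muscle. None of these 8 markers passed the test. Of other cell types, 2 of 4 Schwann cell markers were higher in KL-/- muscle, with sums of 19.4 to 40.3 CPM in WT and 45.8 to 58.5 CPM in KL-/-, and so was 1 of 2 adipocyte markers, with sums of 178 to 198 CPM and 205 to 247 CPM. The markers of macrophages (2 of 6), endothelial cells (1 of 5) and fibro-adipogenic progenitors (2 of 5) included genes that were lower, with sums of 24.6 to 56.2, 369 to 556 and 696 to 2821 CPM in WT against 21.3 to 38.9, 332 to 366 and 362 to 1245 CPM in KL-/-. No marker of smooth muscle or satellite cells passed. The part of these markers in the results that follow was not tested, and in whole muscle fewer cells of a type and less RNA per cell cannot be told apart.

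In KL-/- muscle, 20 of the 62 factor genes were higher and 0 were lower at an FDR under 0.05, the Benjamini-Hochberg adjusted p of edgeR's quasi-likelihood test over all 12551 genes. That is 32.3% of the factor genes, against 7.35% of all genes called higher and 6.67% called lower. The increases were small, with a median fold of 1.28 among the 20 genes and the smallest, 1.16-fold, at *Eif3m*. Only *Eif4ebp1*, *Eif4b*, *Eif3e* and *Eef2* reached a log2 fold change of 0.5. At an unadjusted p under 0.05, 36 of the 62 factor genes passed, against 4031 of all 12551 genes. A positive log2 fold change was found in 48 of the 62 factor genes and in 5978 of all genes. The median log2 fold change was 0.17 over the factor genes and −0.016 over all genes. In 26 factor genes the lowest KL-/- sample exceeded the highest WT sample (41.9%, against 10.2% of all genes), and in 0 the reverse held (against 9.47% of all genes). The exceptions to this separation among the 20 called genes were *Eif2b5*, *Eif3c* and *Eif5*.

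The number of calls rested on the scaling and on single libraries. TMM factors were 1.02 to 1.05 in WT and 0.950 to 0.980 in KL-/- libraries, and with library totals in their place the median of all genes moved to −0.13, that of the factor genes to 0.053, and 11 factor genes were higher and 2 (*Eif4a3* and *Eif4h*) lower, where 3.93% of all genes were higher. Over all genes, the share of higher among called genes was 52.4% with TMM factors and 18.8% with library totals. Relative to the median of all genes, the factor genes lay 0.186 higher on the log2 scale under either scaling. A change of scaling moves all genes almost alike, so this value had to stay the same and is no check of the scaling. Without 1 library the count of higher factor genes was 9 (WT replicate 2, WT replicate 3 or KL-/- replicate 3 left out), 12 (KL-/- replicate 4), 13 (WT replicate 1), 14 (WT replicate 4), 15 (KL-/- replicate 1) and 27 (KL-/- replicate 2). The value without KL-/- replicate 3 is also the value within the batch of the other libraries. The share of all genes called higher moved in these fits too. It was 3.22% to 3.30% where the count was 9 and 12.1% without KL-/- replicate 2, against 7.35% with all libraries. The log2 fold changes of all 20 called genes stayed positive in these 8 fits and with library totals. These genes were picked as higher in the same libraries, so their sign could hardly change and gives no independent support. The 9 genes called in all 8 fits were *Eif4b*, *Eif4ebp1*, *Eif4g3*, *Eif3e*, *Eif3h*, *Eif2s2*, *Eif2a*, *Eef1b2* and *Eef2*.

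**Figure D1:**
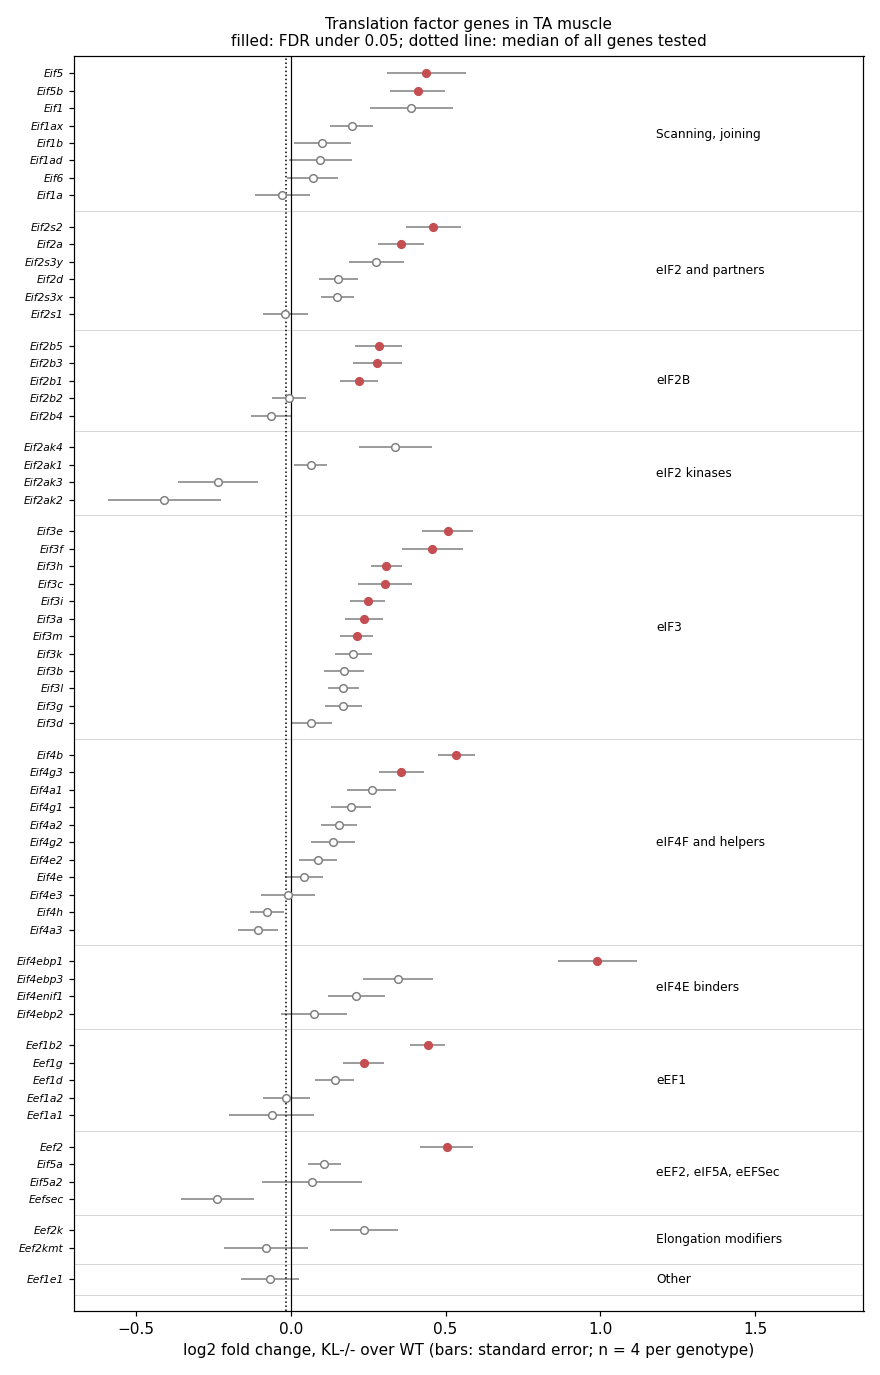
Log2 fold changes (KL-/- over WT, horizontal axis) of the 62 factor genes, grouped by complex, with standard errors as bars and n = 4 mice per genotype. Filled points, FDR under 0.05, are the 20 higher genes, from *Eif3m* at 0.21 to *Eif4ebp1* at 0.99, and no filled point lies left of the solid line at 0, while the dotted line marks the median of all genes tested, −0.016.

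The factor mRNAs together took 1.02% ± 0.024 of the counts (SD, n = 4) in WT and 1.11% ± 0.040 in KL-/- libraries. Split by symbol alone, the Eif genes took 0.641% ± 0.028 and 0.697% ± 0.038, and the Eef genes, far fewer, 0.384% ± 0.0065 and 0.411% ± 0.0088. Of 52 Eif genes 17 were higher, with a median log2 fold change of 0.18, and of 10 Eef genes 3 were higher, with a median of 0.063. This split is one of names and does not separate initiation from elongation. The Eif genes include the eIF2 kinases, the eIF4E-binding proteins and *Eif5a*, and the Eef genes include the kinase gene *Eef2k*. Abundant genes held most of the calls. Among the 31 factor genes with a mean log2 CPM of at least 6, 16 were higher and the median was 0.24, where 386 of all 2172 genes at that level were higher and their median was 0.073.

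Per kilobase of counted length, the scale on which genes can be compared with each other, the most abundant factor mRNA of WT muscle was *Eef1a2* (731 CPM per kilobase), followed by *Eef2* (402), *Eif1* (390), *Eef1a1* (203), *Eef1g* (183) and *Eif5a* (168). The levels of *Eef2* and *Eif1* in this order differed by less than the SD of *Eif1*, 53.5 CPM per kilobase.

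Among the genes of the eIF4F cap-binding machinery, 2 of 11 were higher and 0 lower, with a median log2 fold change of 0.14. Of all genes 7.35% were higher, and of the 2172 with a mean log2 CPM of at least 6, 386, a share close to 2 of 11. The same shares stand beside the counts of the complexes that follow, which hold few genes and were not tested as sets. *Eif4b* (chromosome 15, 102073773 to 102097173 of mm10) encodes a cofactor that stimulates the eIF4A helicase. It was at 238, 239, 213 and 230 CPM in WT replicates 1 to 4 and at 335, 315, 335 and 347 CPM in KL-/- replicates 1 to 4. The lowest KL-/- sample stood well above the highest WT sample, and the genotypes were separated by more than their spread. The log2 fold change was 0.53 (standard error 0.060, FDR = 0.00244), and it ranged from 0.50 to 0.57 with each sample left out. *Eif4g3* (chromosome 4, 137993456 to 138207079) encodes a form of the eIF4G scaffold. Its levels were 260, 234, 222 and 254 CPM in WT and 304, 286, 334 and 318 CPM in KL-/- muscle, without overlap (log2 fold change 0.36, standard error 0.072, FDR = 0.0148).

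The other scaffold and helicase genes did not pass. *Eif4g1*, the main eIF4G scaffold, had levels of 860, 799, 754 and 817 CPM in WT and 915, 899, 957 and 929 CPM in KL-/- muscle. The samples of the genotypes did not overlap, but the log2 fold change of 0.20 gave an FDR of 0.0707 (0.0355 without KL-/- replicate 2). *Eif4a1* and *Eif4a2* encode the helicase itself. *Eif4a1* was at 79.2, 86.8, 78.9 and 81.7 CPM in WT and at 104, 82.6, 101 and 103 CPM in KL-/- muscle (log2 fold change 0.26, FDR = 0.0583). KL-/- replicate 2 lay inside the WT range while the other 3 KL-/- samples lay above it, and without that sample the FDR was 0.00470. *Eif4a2* had a log2 fold change of 0.16 (FDR = 0.102). *Eif4e*, the protein that binds the cap, averaged 97.4 ± 6.84 CPM in the WT and 100.3 ± 2.37 CPM in the KL-/- samples. A log2 fold change of 0.042 had a 95% interval of −0.10 to 0.18 (FDR = 0.669), and with library totals it was −0.076.

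*Eif4ebp1* (chromosome 8, 27260327 to 27275656) showed the largest log2 fold change of the 62 factor genes. It encodes 4E-BP1, which holds eIF4E away from eIF4G until mTOR phosphorylates it. It was at 38.7, 34.3, 29.2 and 32.1 CPM in WT and at 69.4, 51.6, 76.7 and 68.9 CPM in KL-/- muscle. All KL-/- samples lay above all WT samples, with KL-/- replicate 2 the lowest and the library of the other batch date, replicate 3, the highest. The level rose 1.99-fold (log2 fold change 0.99, standard error 0.13, FDR = 0.00307), with a range of 0.92 to 1.10 when samples were left out and 0.87 with library totals.

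*Eif4ebp2*, which encodes a second eIF4E-binding protein, was at 90.0, 79.1, 76.6 and 98.7 CPM in WT and at 102, 79.5, 98.3 and 83.4 CPM in KL-/- muscle. These samples overlapped throughout, and the log2 fold change of 0.075 had a 95% interval of −0.16 to 0.31 (FDR = 0.656, and −0.042 with library totals). Per kilobase, *Eif4ebp2* mRNA exceeded *Eif4ebp1* mRNA in WT muscle, 48.2 against 34.2 CPM per kilobase, and *Eif4ebp1* exceeded *Eif4ebp2* in KL-/- muscle, 67.9 against 50.8 CPM per kilobase. The third member, *Eif4ebp3*, was low, with a mean of 5.03 CPM in WT and of 6.38 CPM in KL-/- muscle (FDR = 0.0685), and 43.5% of its length is shared with another gene annotated on the same strand, so that its counts are uncertain.

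**Figure D2:**
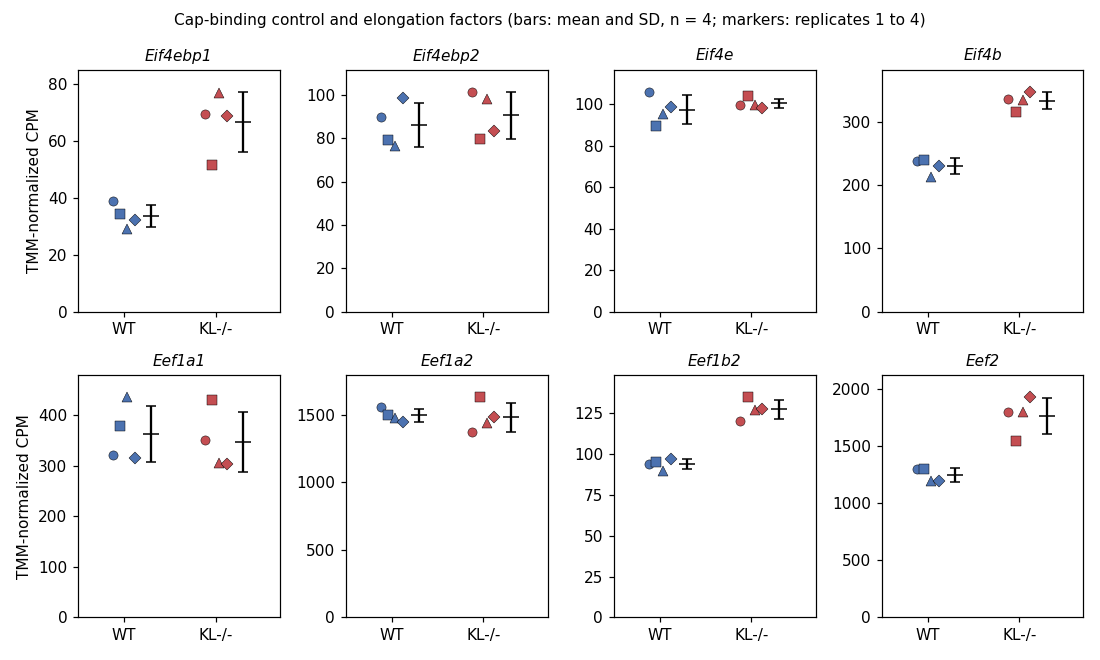
TMM-normalized CPM per sample (points, marker shape by replicate number) with the mean and SD (bars, n = 4) for 4 genes of cap binding and its control and 4 elongation factor genes, each on an axis from 0. *Eif4ebp1*, *Eif4b*, *Eef1b2* and *Eef2* are separated between genotypes, and *Eif4ebp2*, *Eif4e*, *Eef1a1* and *Eef1a2* overlap.

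eIF3 is the largest initiation factor, a scaffold on the small subunit. Of its 12 measured subunit genes 7 were higher and 0 lower, and all 12 had a positive log2 fold change (11 of 12 with library totals, where *Eif3d* was at −0.051). The median log2 fold change was 0.22. *Eif3e* (chromosome 15, 43250040 to 43282736) was at 108, 103, 86.9 and 100.2 CPM in WT and at 132, 132, 152 and 149 CPM in KL-/- muscle (log2 fold change 0.51, standard error 0.082, FDR = 0.00697). *Eif3h* (chromosome 15, 51786563 to 51865461) was at 100.3, 99.6, 94.8 and 98.0 CPM in WT and at 124, 116, 125 and 121 CPM in KL-/- muscle (log2 fold change 0.31, standard error 0.051, FDR = 0.00729). These subunit genes lie on the same chromosome, and in both the genotypes did not overlap, with a wider spread among the WT samples of *Eif3e* (SD 8.92 CPM) than of *Eif3h* (SD 2.45 CPM).

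*Eif3f* (chromosome 7, 108934415 to 108941942), a subunit known in muscle as a target of the ubiquitin ligase atrogin-1, was at 113, 105, 99.5 and 108 CPM in WT and at 151, 117, 165 and 151 CPM in KL-/- muscle. KL-/- replicate 2 lay just above the WT samples and far below the other KL-/- samples. The log2 fold change was 0.46 (standard error 0.10, FDR = 0.0193), and the call was lost at FDR values of 0.0520 to 0.0584 when WT replicate 2, WT replicate 3, KL-/- replicate 3 or KL-/- replicate 4 was left out. *Eif3c*, a core subunit, had the same pattern in KL-/- replicate 2, at 168 CPM against 208 to 219 CPM in the other KL-/- samples and 154 to 174 CPM in WT muscle. Its log2 fold change was 0.31 (FDR = 0.0460). With a sample left out the call held in 1 of the 8 fits, that without KL-/- replicate 2 (FDR = 0.00305), and was lost at an FDR of 0.0552 to 0.122 without any other sample.

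*Eif3a*, the large core subunit, was at 156, 156, 154 and 161 CPM in WT and at 179, 196, 194 and 169 CPM in KL-/- muscle (log2 fold change 0.24, FDR = 0.0330). *Eif3i* rose from 73.8 ± 3.38 to 87.6 ± 3.28 CPM (log2 fold change 0.25, FDR = 0.0223), and *Eif3m* from 64.5 ± 2.77 to 74.7 ± 1.76 CPM (log2 fold change 0.21, FDR = 0.0309). All of these genes separated the genotypes by a narrow margin. The call of *Eif3a* was lost without any WT sample or KL-/- replicate 3 (FDR 0.0511 to 0.0969). That of *Eif3i* was lost without WT replicate 2 or 3 or KL-/- replicate 3 or 4 (FDR 0.0577 to 0.0683), and that of *Eif3m* without WT replicate 2, 3 or 4 or KL-/- replicate 3 or 4 (FDR 0.0531 to 0.0853). Of the 5 subunits that did not pass, *Eif3k* (FDR = 0.0527) and *Eif3l* (FDR = 0.0533) came closest, and *Eif3d* was farthest, with a log2 fold change of 0.067 and a 95% interval of −0.08 to 0.22. An antisense gene covers 32.7% of the length of *Eif3d*, and whether reads were counted by strand is not given in the sources used here.

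The subunits of eIF3 sit in the complex in equal numbers, and their mRNA levels lay within a 3.08-fold range in WT muscle, from 26.0 CPM per kilobase for *Eif3d* to 80.0 CPM per kilobase for *Eif3h*. The range was 3.64-fold in KL-/- muscle, and the median subunit went from 51.4 to 59.3 CPM per kilobase. The genes that rose most, *Eif3e* and *Eif3f*, were already among the 4 most abundant in WT muscle. In KL-/- muscle *Eif3e* stood at 91.7 ± 7.10, *Eif3f* at 97.0 ± 13.7 and *Eif3h* at 99.0 ± 3.27 CPM per kilobase, levels that did not differ beyond their spread.

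**Figure D3:**
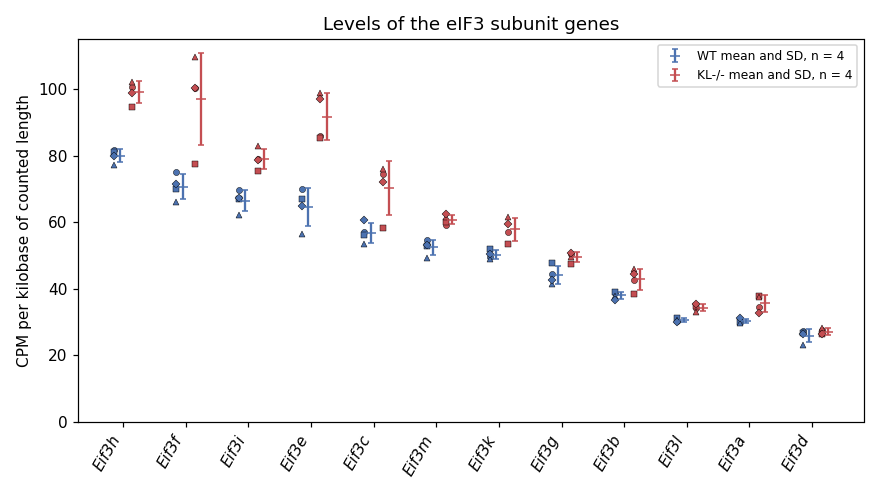
Levels of the 12 eIF3 subunit genes in CPM per kilobase of counted length, ordered by WT level, with each sample as a point (marker shape by replicate number) and the mean and SD as bars, n = 4 per genotype. Every KL-/- mean lies above its WT mean, by a wide margin for *Eif3e* and *Eif3f* and by less than the SD of the WT samples for *Eif3d*, and KL-/- replicate 2 (square) lies lowest at *Eif3f* and *Eif3c*.

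eIF2 carries the initiator tRNA to the ribosome as a trimer of alpha, beta and gamma subunits. Of 6 genes of eIF2 and its partners 2 were higher and 0 lower, with a median log2 fold change of 0.21. *Eif2s2* (chromosome 2, 154871410 to 154892906), the beta subunit, was at 165, 151, 138 and 172 CPM in WT and at 200.3, 201, 243 and 217 CPM in KL-/- muscle (log2 fold change 0.46, standard error 0.088, FDR = 0.0119). *Eif2s1*, the alpha subunit that the stress kinases phosphorylate, was at 47.7, 44.9, 42.2 and 46.8 CPM in WT and at 41.4, 49.8, 43.6 and 44.5 CPM in KL-/- muscle. The beta subunit was separated between genotypes while the alpha subunit overlapped fully, with a log2 fold change of −0.018 and a 95% interval of −0.18 to 0.14. The interval of *Eif2s1* lies below that of *Eif2s2*, 0.26 to 0.66, and the difference between these genes was not tested. The gamma subunit genes on the sex chromosomes, *Eif2s3x* (log2 fold change 0.15, FDR = 0.0871) and *Eif2s3y* (0.28, FDR = 0.0687), did not pass. *Eif2a*, a separate factor able to bind initiator tRNA, was at 54.8, 49.0, 48.0 and 44.4 CPM in WT and at 58.3, 63.7, 63.9 and 65.1 CPM in KL-/- muscle (chromosome 3, 58525821 to 58557501, log2 fold change 0.36, standard error 0.074, FDR = 0.0160).

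eIF2B is the exchange factor that returns eIF2 to its GTP-bound form. Of its 5 subunit genes 3 were higher and 0 lower, with a median log2 fold change of 0.22. *Eif2b5*, the catalytic epsilon subunit, was at 61.4, 61.4, 56.2 and 65.8 CPM in WT and at 76.4, 65.2, 79.9 and 76.3 CPM in KL-/- muscle (log2 fold change 0.28, standard error 0.077, FDR = 0.0394). KL-/- replicate 2 again fell inside the WT range. *Eif2b3*, the gamma subunit, rose from 15.7 ± 0.270 to 19.1 ± 1.72 CPM (log2 fold change 0.28, FDR = 0.0445), and *Eif2b1*, the alpha subunit, from 41.2 ± 0.877 to 47.9 ± 3.07 CPM (log2 fold change 0.22, FDR = 0.0439). The beta and delta subunit genes *Eif2b2* (log2 fold change −0.006, FDR = 0.952) and *Eif2b4* (−0.063, FDR = 0.531) did not pass. The call of *Eif2b5* held in 2 of the 8 fits with a sample left out, those without WT replicate 4 or KL-/- replicate 2, and was lost at an FDR of 0.0727 to 0.107 without any other sample. The calls of *Eif2b1* and *Eif2b3* held only without KL-/- replicate 2, and without any other sample the FDR was 0.0805 to 0.119 and 0.0602 to 0.115.

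The 4 kinases that phosphorylate eIF2 alpha were called in neither direction. *Eif2ak4* (GCN2, which senses amino acid shortage) was at 8.57, 6.20, 6.86 and 8.14 CPM in WT and at 8.58, 9.45, 9.78 and 9.91 CPM in KL-/- muscle (log2 fold change 0.34, FDR = 0.0843). *Eif2ak3* (PERK, the kinase of endoplasmic reticulum stress) was at 6.57, 7.54, 9.30 and 7.42 CPM in WT and at 6.21, 7.25, 5.84 and 6.94 CPM in KL-/- muscle (log2 fold change −0.24, FDR = 0.233). KL-/- samples of *Eif2ak4* lay above the WT samples by a bare margin, and those of *Eif2ak3* overlapped. *Eif2ak2* (PKR, the sensor of double-stranded RNA) had a log2 fold change of −0.41 with a 95% interval that ended just below 0 (FDR = 0.154), and *Eif2ak1*, by far the most abundant of the 4 per kilobase at 25.4 against 1.42 to 1.99 CPM per kilobase in WT, one of 0.064 (FDR = 0.445).

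Among the 8 genes for scanning and subunit joining, 2 were higher and 0 lower, with a median log2 fold change of 0.15. *Eif5b* (chromosome 1, 37998010 to 38055579), the GTPase of subunit joining, was at 119.5, 103, 103 and 119.8 CPM in WT and at 150.4, 129, 167 and 145 CPM in KL-/- muscle (log2 fold change 0.41, standard error 0.089, FDR = 0.0191). Its FDR was 0.0583, 0.0573 and 0.0506 without WT replicate 2, WT replicate 3 and KL-/- replicate 3. *Rev1* on the other strand shares 21.1% of the length of *Eif5b*, the only overlap of at least 10% among the 20 called genes. *Eif5*, which triggers GTP hydrolysis on eIF2, was at 198, 171, 168 and 222 CPM in WT and at 258, 200.2, 286 and 284 CPM in KL-/- muscle. Both genotypes spread widely and KL-/- replicate 2 lay between the WT samples, and the log2 fold change of 0.44 had the weakest call of the 20 (standard error 0.13, FDR = 0.0495). It was lost without any sample but WT replicate 4 or KL-/- replicate 2, at an FDR of 0.0814 to 0.129. *Eif6*, which keeps the subunits apart until joining, had a log2 fold change of 0.070 with a 95% interval of −0.11 to 0.25 (FDR = 0.583), and with library totals −0.048.

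Of the 5 genes of the eEF1 complex 2 were higher and 0 lower, with a median log2 fold change of 0.14. *Eef1b2* (chromosome 1, 63176831 to 63180486), an exchange subunit, was at 93.5, 94.8, 89.4 and 97.0 CPM in WT and at 120.2, 134, 127 and 127 CPM in KL-/- muscle. The samples were tightly grouped within each genotype and did not overlap (log2 fold change 0.44, standard error 0.055, FDR = 0.00298). *Eef1g*, a structural subunit of the same exchange complex, was at 274, 289, 287 and 297 CPM in WT and at 308, 332, 339.6 and 371 CPM in KL-/- muscle (log2 fold change 0.24, standard error 0.066, FDR = 0.0441). The call of *Eef1g* held without KL-/- replicate 1 or 2 and was lost without any other sample, at an FDR of 0.0611 to 0.113. *Eef1d*, another exchange subunit, had a log2 fold change of 0.14 with a 95% interval that reached 0 (FDR = 0.162).

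The genes of eEF1A itself did not pass. *Eef1a2*, the form of adult muscle, was at 1560, 1499, 1474 and 1448 CPM in WT and at 1371, 1627, 1438 and 1484 CPM in KL-/- muscle. *Eef1a1*, the form of most other tissues and a reference gene of the study's qRT-PCR, was at 322, 379, 436 and 316 CPM in WT and at 351, 431, 305 and 304 CPM in KL-/- muscle. Both overlapped fully between genotypes, and *Eef1a1* varied much more within a genotype than *Eef1a2*. The log2 fold change of *Eef1a2* was −0.015 with a 95% interval of −0.18 to 0.16, and that of *Eef1a1* was −0.062 with an interval of −0.37 to 0.25 (FDR = 0.787). The per-kilobase level of *Eef1a1* relative to *Eef1a2* was 0.278 ± 0.046 (SD, n = 4) in WT and 0.268 ± 0.035 in KL-/- muscle, a difference smaller than either SD. *Ap3d1*, the other qRT-PCR reference gene, had a log2 fold change of 0.046 (FDR = 0.751).

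*Eef2* (chromosome 10, 81176631 to 81182509), the translocase, was at 1299, 1297, 1194 and 1194 CPM in WT and at 1796, 1544, 1797 and 1928 CPM in KL-/- muscle. The lowest KL-/- sample, replicate 2, was still above all WT samples. In CPM this was the largest absolute increase among the named factor genes (log2 fold change 0.50, standard error 0.086, FDR = 0.00786). *Eef2k*, the kinase that inhibits eEF2, was at 96.3, 77.8, 70.4 and 88.3 CPM in WT and at 105, 83.1, 105 and 98.4 CPM in KL-/- muscle (log2 fold change 0.24, 95% interval −0.01 to 0.48, FDR = 0.170), with overlapping samples. *Eif5a*, which relieves ribosomes stalled at difficult peptides, was at 340.0, 355, 338 and 323 CPM in WT and at 360.4, 374, 364 and 363 CPM in KL-/- muscle. Its samples did not overlap, but the margin was small (log2 fold change 0.11, FDR = 0.191, and −0.010 with library totals).

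**Figure D4:**
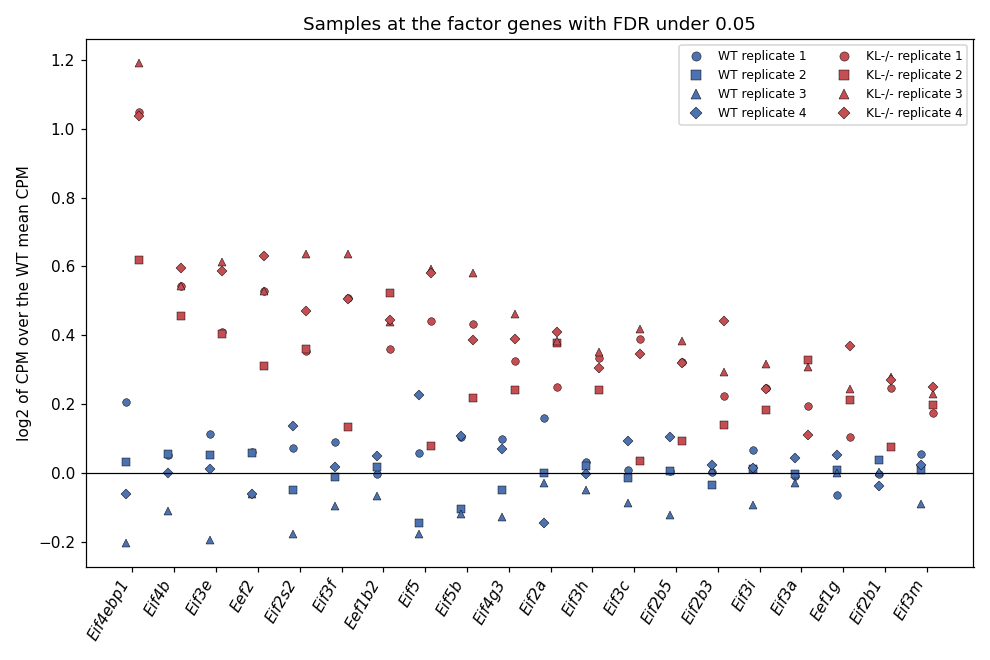
Each of the 8 samples at the 20 called factor genes, as log2 of its CPM over the WT mean CPM, with blue for WT and red for KL-/- and marker shape by replicate number. The WT samples scatter around 0 and the KL-/- samples lie above it at every gene, with KL-/- replicate 2 (squares) the lowest KL-/- sample at 14 of the 20 genes.

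The samples kept a similar order over many of these genes. KL-/- replicate 2 was the lowest KL-/- sample in 14 of the 20 called genes and in 30 of all 62, and WT replicate 3 was the lowest WT sample in 16 of the 20. KL-/- replicate 3 was the highest KL-/- sample in 12 of the 20. Over all genes too, KL-/- replicate 2 stood apart from the other KL-/- libraries. The chi-square per gene between pairs of libraries was 60.3 to 84.4 with it and 17.8 to 27.8 among the others. The order of samples is therefore not particular to the factor genes on these values, and how often each sample was lowest over all genes is not given here. KL-/- replicate 2 also had the largest share of counts on *Myh4*, the fast type IIb myosin heavy chain, at 5.97% against 4.11% to 4.33% in the other KL-/- samples and 3.41% to 3.96% in WT muscle, and the part of this share in the lower levels was not tested.

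Several factor mRNAs belong to the terminal oligopyrimidine (TOP) class, whose messages begin with a C followed by a run of pyrimidines and whose translation is known to follow mTOR activity. Of 9 factor genes listed here for that class 7 were higher and 0 lower (*Eif4b*, *Eef2*, *Eif3e*, *Eif3f*, *Eef1b2*, *Eif3h* and *Eef1g*), and *Eef1d* and *Eef1a1* did not pass. Their median log2 fold change was 0.44, and it was 0.16 over the 53 other factor genes, of which 13 were higher. These sets were not matched for level, and the list was chosen with earlier results of these data known. The list may not hold every factor gene of the class, and both medians depend on it. *Eef1a2*, with a log2 fold change of −0.015, was counted among the 53. The 31 factor genes with a mean log2 CPM of at least 6 include all 9, and had a median of 0.24 with 16 higher. The 31 under that level, all among the 53, had a median of 0.095 with 4 higher. RefSeq start sites for 5 of the 9 were at hand, and 30 bases near each are shown. The runs marked in them are not the class feature itself, which lies at the first bases of the message. The sequences are taken from RefSeq on GRCm38.p6, the build also named mm10, read 5′ to 3′ on the strand of the gene. The capitals mark the longest run of C and T within 20 bases on either side of the annotated start, and each sequence is centred on that run, not on the start. The run begins at position 15 of the transcript in *Eef2*, whose printed bases lie wholly past the start, and before the start in the other genes. In *Eef1b2* and *Eif4b* it begins 4 and 13 bases before the start and also ends before it, outside the annotated transcript. In *Eef1a1* and *Eif3f* it begins 5 and 4 bases before the start and runs across it.
*Eef1a1* (chr9:78481710-78481739, minus strand): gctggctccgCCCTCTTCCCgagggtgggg
*Eef1b2* (chr1:63176814-63176843, plus strand): cttggacctgcagTTCCgccggaagtagcc
*Eef2* (chr10:81176633-81176662, plus strand): tgacgtcagcggTCTCTTccgccgcagccg
*Eif3f* (chr7:108934403-108934432, plus strand): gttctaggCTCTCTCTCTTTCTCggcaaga
*Eif4b* (chr15:102073748-102073777, plus strand): atgtcgcgcaggTCTTCCCgtcggacgccg

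The longest runs were 10 bases in *Eef1a1*, 4 in *Eef1b2*, 6 in *Eef2*, 15 in *Eif3f* and 7 in *Eif4b*. *Eef1a1*, with the second longest, had the lowest log2 fold change of the 5, and *Eef1b2*, with the shortest, was among those that rose. Run length was not tested against the fold changes, and 5 genes are too few to read a relation from this order. A run of at least 8 letters C or T on the strand of the gene was found in 12 of the 50 factor genes with a RefSeq promoter (24.0%), in 3 of the 14 called ones (21.4%, *Eif2b5*, *Eif3f* and *Eif3m*) and in 19.9% of 9564 tested genes. On the other strand the shares were 10% of the factor genes and 19.3% of tested genes. Such a run is a match of letters near an annotated start and does not show where transcription began in these muscles.

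Of 32 measured regulators and partners of these factors outside the families 5 were higher and 1 lower, with a median log2 fold change of 0.14. Of all genes 7.35% were higher and 6.67% lower, and of the 2172 genes with a mean log2 CPM of at least 6, 386 were higher. *Mknk1*, which encodes a kinase of eIF4E, had WT levels of 36.1, 32.2, 30.2 and 36.8 CPM. Its KL-/- samples stood higher, with 46.4, 49.7, 51.4 and 46.1 CPM (log2 fold change 0.52, standard error 0.078, FDR = 0.00597). They did not overlap the WT samples, and *Mknk1* was called in all 8 fits with a sample left out. *Mknk2*, the gene of another eIF4E kinase, did not pass, and its samples overlapped (log2 fold change 0.32, FDR = 0.214). Its mean WT level, not scaled by length, was 348 CPM, against 33.8 CPM for *Mknk1*. *Ddit4*, an inhibitor of mTOR complex 1, was at 9.43, 9.25, 6.06 and 5.41 CPM in WT and at 17.0, 16.1, 141 and 41.5 CPM in KL-/- muscle (log2 fold change 2.85, standard error 0.68, FDR = 0.0266). Every KL-/- sample lay above the WT samples, but replicate 3, the library of the other batch date, exceeded the others several-fold. Without that library the log2 fold change of *Ddit4* was 1.73 (FDR = 0.0283), and the call was lost without KL-/- replicate 4 or any WT sample (FDR 0.0535 to 0.0766). *Mlst8*, a subunit of both mTOR complexes, was the gene that fell, from 20.7 ± 1.53 to 16.8 ± 0.488 CPM (log2 fold change −0.31, FDR = 0.0273). Its call held without KL-/- replicate 1 or 2 or WT replicate 2 and was lost at an FDR of 0.0587 to 0.0800 without any other sample. *Abcf1*, *Paip1* and *Rps6kb2* were higher with log2 fold changes of 0.26, 0.22 and 0.26, and these calls held only without KL-/- replicate 2 among the 8 fits, with an FDR of 0.0535 to 0.131 in the others. *Mtor*, *Rptor*, *Larp1* and *Atf4* did not pass, with log2 fold changes of 0.10, −0.054, −0.047 and 0.21.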

How the data were processed

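Libraries were made from 100 ng of TA muscle RNA from each of 4 WT and 4 KL-/- mice. Alignment to mm10 by the authors used STAR and counting per gene used featureCounts, and the deposited whole-number counts carry no normalization. Annotation version and strand setting are not given in the sources used here. Groups and replicate numbers come from the labels. The analysis ran edgeR 4.0.16 under R 4.3.3, with TMM factors, the default filter on low counts, which kept all 12551 genes, a model with genotype only, and FDR values from the quasi-likelihood test, adjusted by Benjamini-Hochberg over all genes and called under 0.05. All 62 factor genes were tested, the lowest raw count being 44. Standard errors come from the test statistic. The floor of 3 counts was 0.102 to 0.144 CPM and covers counting error only. No libraries were duplicates. The test was checked on simulated counts. Alternatives were RLE factors, library totals, no filter, at least 10 counts in every sample, DESeq2 1.42.0, the likelihood ratio test, the replicate number as a block, each sample left out, and, chosen after seeing the data, the edgeR 3 fit. Named were the called factor genes, up to 25 by smallest p, and fixed members of each complex. Others are given by counts or were chosen after their values were seen. The members and lists were chosen with earlier results of these data known.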

Additional observations from a re-analysis of the deposited data

Results flagged for a closer look

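Of 68 groups of 4 samples tested for a sample far from the others, 2 stood out by Dixon's test at the 95% level, where chance gives about 1 in 20 groups. At that rate, 2 of 68 is no more than chance would give. *Eif2b1* was at 43.4 CPM in KL-/- replicate 2, below 48.8 to 49.9 CPM in the other KL-/- samples. *Eif4a1* was at 82.6 CPM in KL-/- replicate 2, below 101 to 104 CPM in the other KL-/- samples.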

How the results depend on the processing

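The count of 20 higher factor genes was 20 to 21 with RLE factors, no filter or at least 10 counts in every sample, 27 with DESeq2, 16 with the likelihood ratio test and 18 with the edgeR 3 fit, and 0 were lower in each. Of all genes, 7.35% to 7.62% were higher with RLE factors, no filter or at least 10 counts. The share was 10.5% with DESeq2, 8.17% with the likelihood ratio test and 7.23% with the edgeR 3 fit. With library totals 11 were higher and 2 lower, where 3.93% of all genes were higher, and the median log2 fold change was 0.053. With the replicate number as a block 8 were higher, against 2.77% of all genes (671 of all genes called in either direction, in place of 1759). The deviations of same-numbered samples correlated at −0.15, 0.18, −0.37 and 0.017. These values give no sign that the numbers pair the mice, but they cannot exclude a weak pairing. With each sample left out the count ranged from 9 to 27. That of all genes called in either direction ranged from 762 without KL-/- replicate 3 to 2755 without KL-/- replicate 2. With library totals, *Eif4e* (−0.076), *Eif4ebp2* (−0.042), *Eif5a* (−0.010) and *Eif6* (−0.048) turned negative, and with samples left out *Eef1a1* ranged from −0.17 to 0.038, *Eef1a2* from −0.054 to 0.030 and *Eif2s1* from −0.063 to 0.028, none of them called. The causes were not tested. With 4 mice per genotype, differences within the intervals given for genes that were not called are not excluded.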
